A study of Homo sapiens with 2 samples.

Results

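A run of closely spaced PABPC1 peaks on chromosome 19 of RWPE-empty vector cells was examined. The run lies between 13071121 and 13656847 of hg19, over NFIX and most of CACNA1A, and holds 249 of the 424 peaks called in these cells (58.7%, 95% Wilson interval 54.0 to 63.3%, counting error alone). It was picked out by its position because the peaks are dense there, so the number of peaks and their strength are descriptions of what was chosen and carry no test. Its limits are the first and the last RWPE-empty vector peak of chromosome 19, so peaks beyond them are absent by this choice. RWPE1 cells are a human immortalized prostate epithelial line grown in keratinocyte serum-free medium. The control group carried an empty vector, and the RWPE-ERG group expressed the ETS transcription factor ERG, which the study introduced by retrovirus into the same line. PABPC1 was precipitated from cross-linked chromatin with the same antibody (Santa Cruz) in both groups. For each group 3 ChIP experiments were pooled into 1 library, with an input library (chromatin without antibody) as its background, so there is no replicate and no test between the groups. The ChIP libraries held 38648756 tags (aligned reads) for the control and 2366623 for RWPE-ERG, whose list holds 1481 peaks.

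PABPC1 is best known as a cytoplasmic protein that coats the poly(A) tail of mRNA and promotes its translation and stability. It has RNA-recognition motifs and is not a classical DNA-binding factor, and ChIP also recovers DNA that a protein reaches only through RNA or partner proteins. CACNA1A encodes the pore-forming subunit of the P/Q-type voltage-gated calcium channel, which drives transmitter release in neurons, and NFIX encodes a DNA-binding factor of the nuclear factor I family. The other genes of the region are DAND5 (a secreted antagonist of Nodal signaling), LYL1 (a basic helix-loop-helix factor of blood cells), TRMT1 (a tRNA methyltransferase), NACC1 (a transcriptional repressor with a BTB domain), STX10 (a syntaxin of membrane traffic) and IER2 (an immediate early gene).

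The sequences below are the 5 peaks of the region with the highest -log10 p and the 2 peaks that form its edges, shown because they let the base composition described further on be read directly. They are hg19, plus strand, 5′ to 3′; CACNA1A is on the minus strand. Capitals mark runs of 5 or more A or T and uninterrupted repeats of ATTC, or of its reverse complement GAAT. The peak in intron 11 is 462 bp long, and the first 300 bp are given.
intron 3 of CACNA1A, chr19:13547234-13547477: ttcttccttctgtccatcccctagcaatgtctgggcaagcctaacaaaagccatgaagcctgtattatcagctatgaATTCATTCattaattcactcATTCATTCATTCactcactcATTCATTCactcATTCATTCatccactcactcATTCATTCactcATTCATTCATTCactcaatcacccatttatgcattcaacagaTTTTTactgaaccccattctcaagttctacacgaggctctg
intron 24 of CACNA1A, chr19:13383400-13383530: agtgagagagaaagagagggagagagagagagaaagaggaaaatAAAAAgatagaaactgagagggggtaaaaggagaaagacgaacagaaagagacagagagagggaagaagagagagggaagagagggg
intron 11 of CACNA1A, chr19:13425492-13425791: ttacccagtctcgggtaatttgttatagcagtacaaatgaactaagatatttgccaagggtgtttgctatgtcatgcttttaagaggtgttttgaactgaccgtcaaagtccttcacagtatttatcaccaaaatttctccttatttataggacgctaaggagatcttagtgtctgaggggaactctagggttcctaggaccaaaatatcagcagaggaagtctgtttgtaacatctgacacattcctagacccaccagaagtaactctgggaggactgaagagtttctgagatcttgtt
intron 10 of CACNA1A, chr19:13430026-13430230: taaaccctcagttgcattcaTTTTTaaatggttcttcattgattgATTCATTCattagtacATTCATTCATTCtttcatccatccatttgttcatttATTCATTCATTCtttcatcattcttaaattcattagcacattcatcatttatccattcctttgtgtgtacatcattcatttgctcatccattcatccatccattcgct
intron 6 of CACNA1A, chr19:13446894-13447111: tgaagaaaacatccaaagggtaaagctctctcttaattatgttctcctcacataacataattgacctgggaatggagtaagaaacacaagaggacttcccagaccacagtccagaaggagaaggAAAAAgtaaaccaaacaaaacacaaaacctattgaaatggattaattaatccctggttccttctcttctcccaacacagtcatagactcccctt
first peak, chr19:13071121-13071308: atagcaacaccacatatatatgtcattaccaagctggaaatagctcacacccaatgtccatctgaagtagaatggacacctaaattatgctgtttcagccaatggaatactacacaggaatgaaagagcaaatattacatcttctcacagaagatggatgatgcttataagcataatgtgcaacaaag
last peak, chr19:13656686-13656847: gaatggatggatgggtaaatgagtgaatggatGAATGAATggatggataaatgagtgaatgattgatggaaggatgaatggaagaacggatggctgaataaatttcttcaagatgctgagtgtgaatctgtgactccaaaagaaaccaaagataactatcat

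The strongest of these peaks, in intron 3 of CACNA1A, had 31 ChIP tags over its summit (the base with the highest pileup) and a -log10 p of 13.95. Its fold enrichment, the MACS2 ratio of pileup to local input after 1 is added to both, was 9.11. The peak in intron 10 had 29 tags, and those in introns 24, 11 and 6 had 27 each, all with a -log10 p of 12.5. In all, 7 peaks shared this -log10 p, and the 4 named are the first of them by position. At all 5 peaks the local input was 0.495 to 0.496 input tags per 85 bp fragment, the genome-wide background of the input library (0.496). No listed peak had a value below 0.495, so an input lower than this background would not show. The sequences differ in kind. The peak in intron 3 and that in intron 10 carry tandem ATTC repeats, the peak in intron 24, which an annotated exon of another transcript covers, is made of purine-rich stretches, and the peak in intron 11 has no run of 5 A or T at all.

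A peak of the region held 10 tags at its lowest summit, a median of 18 (95% interval of the median 17 to 19) and 36 at its highest. Summits of 30 tags or more were found in 5 peaks, and of 14 or fewer in 38. The summit with 36 tags, at 13425003 to 13425255 in CACNA1A, was at the same time among those with the highest local input (2.999), and its -log10 p was 6.17. The longest peak, at 13619535 to 13620471, measured 937 bp, against a median of 157 bp and a minimum of 85 bp, the fragment length that MACS2 assumed. Longer peaks tended to have higher summits (Spearman rho 0.52 across 249 peaks of 1 library, given as a description). With a q (the p adjusted by MACS2) of 0.05 or less there were 87 of the 249 peaks (34.9%), where the whole RWPE-empty vector list, the region included, has 28.8%. The peak calls chose the region, so nothing is read from this difference.

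Of the peaks in the region, 225 (90.4%, 95% Wilson interval 86.1 to 93.4%) had their midpoint in CACNA1A (13317256 to 13743839, minus strand), which makes up 58.0% of the region. That was 6.63 peaks per 10 kb of the 340 kb of the gene that the region includes. NFIX (13106289 to 13209610, plus strand) held 11 peaks, 1.06 per 10 kb, and DAND5 (13075973 to 13085574, plus strand) held 2. The remaining 11 peaks lay between protein-coding genes, 6 of them in the 51.5 kb between IER2 and CACNA1A. No peak lay in LYL1 (13209847 to 13213975), TRMT1 (13215716 to 13228381), NACC1 (13227676 to 13251961), STX10 (13254872 to 13261197) or IER2 (13261225 to 13265725). Summits in CACNA1A held 11 to 36 tags with a median of 18. The 24 peaks before the gene held 10 to 29 tags with a median of 15, so the ranges overlap almost fully.

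**Figure D1:**
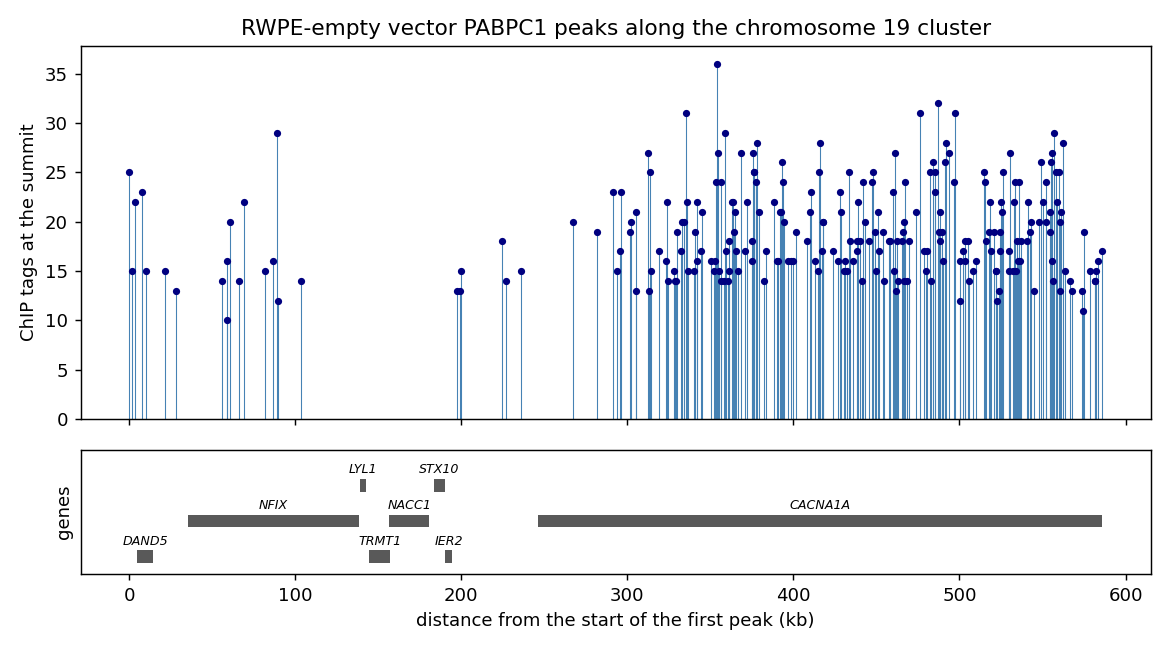
ChIP tags at the summit of each of the 249 RWPE-empty vector peaks (points with drop lines, y axis) against the distance in kb from the start of the first peak (x axis), with the protein-coding genes below as bars (CACNA1A is cut at the last peak). Summits of 10 to 36 tags occur along the region, and the points are dense in CACNA1A and sparse before it.

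The height of the summits was followed along the region. In consecutive 50 kb segments the median summit was 15, 15.5, 14, 13 and 15 tags in the first 5 segments, which held 7, 10, 1, 3 and 3 peaks. From the sixth segment on, where CACNA1A takes over, the medians were 19.5, 18, 19, 18, 19, 18 and 19 tags, over 6, 28, 45, 33, 40, 44 and 29 peaks, the last segment being 35.7 kb long. The first 5 medians were thus all below those from the sixth segment on, and the number of peaks varied more along the region than their height. The last segment was not uniform. Its first 10 kb bin held 13 peaks with a median of 22 tags, and the bins after it held 7, 4 and 5 peaks with medians of 15, 14 and 15 tags. Since a peak with fewer than 10 tags is not in the list, these medians describe listed peaks and not the coverage of the segment. Across the 249 peaks, tags and position had a Spearman rho of 0.07.

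Neighboring peaks followed each other at a median of 980 bp between midpoints (95% interval of the median 811 to 1127 bp). In CACNA1A the median was 869 bp, the lowest 194.5 bp and the highest 14.5 kb. Before CACNA1A it was 3016 bp, with a range of 425 bp to 94.0 kb. The SD of the spacing in CACNA1A was 1.14 times its mean, as wide a spread as the mean itself. From the end of a peak to the start of the next, the shortest gap was 84 bp, just above the 81 bp tag length within which MACS2 joins sites. Of the 248 gaps, 36 were under 200 bp, 114 were from 200 bp to 1 kb, 80 from 1 to 5 kb, 10 from 5 to 10 kb and 8 were longer. Joining peaks within 1 kb left 99 groups, the largest of them 8987 bp long, and 49 peaks stood alone. Together the peaks covered 51575 bp, or 8.81% of the region. The list gives no coverage between peaks. Whether the peaks are separate sites or the highest points of a coverage raised over the whole region was not tested, and their number, spacing and edges are those of listed peaks.

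**Figure D2:**
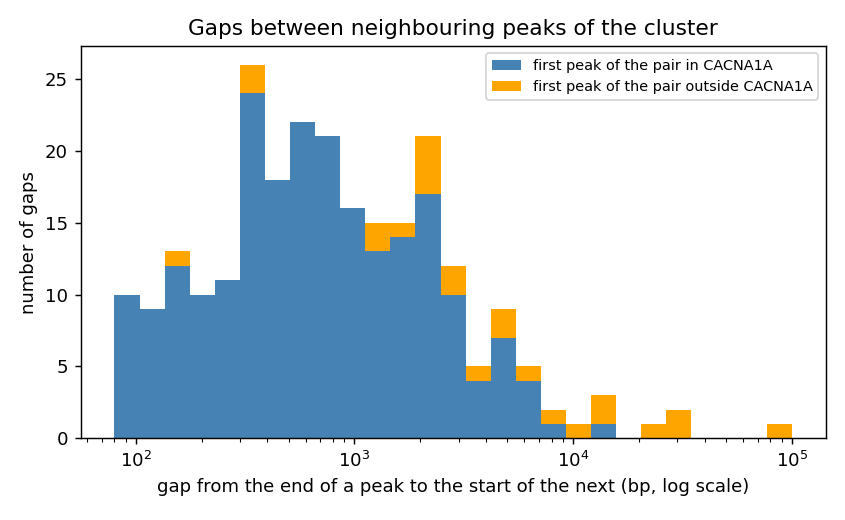
Number of gaps (y axis) by the distance from the end of a peak to the start of the next (x axis, bp, log scale), stacked by whether the first peak of the pair lies in CACNA1A. The gaps run from 84 bp to 93.9 kb, and the 4 longest begin outside CACNA1A.

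The longest stretch without a peak ran for 93.9 kb, from 13174377 to 13268259. It takes in the 3′ part of NFIX and all of LYL1, TRMT1, NACC1, STX10 and IER2, and its GC content was 56.6%. The peak before it (13174275 to 13174376, in NFIX) had 14 tags and the peak after it (13268260 to 13268362) had 13, close to the lowest in the region. The next longest stretches measured 31.2 kb (13307212 to 13338397, reaching into the 3′ end of CACNA1A), 27.3 kb (13099418 to 13126727, over the start of NFIX) and 24.8 kb (13270995 to 13295796). Their GC contents were 54.0, 57.9 and 52.3%. The 8 longest stretches all had a GC content above the 50.5% of the whole region.

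Peak number followed base composition along the region. Of the 10 kb bins, counted from the first peak, 42 of 59 held a peak. In the 58 complete bins, peak number fell as GC content rose (Spearman rho -0.88, a description across neighboring bins of 1 library). The 17 bins without a peak had a median GC content of 55.4%, and the 22 bins with 5 or more peaks had 45.9%. The fullest bins, with 13 peaks each, began at 13531121 (45.8% GC) and 13621121 (43.2% GC), both in CACNA1A. The relation was also seen on each side of the 3′ end of CACNA1A, with a rho of -0.75 across 33 bins inside the gene and -0.50 across 24 bins before it. Where the GC content was 50 to 55%, the mean was 1.60 peaks per bin in CACNA1A (5 bins, 0 to 6 peaks) and 1.54 before it (13 bins, 0 to 4 peaks). The mean in CACNA1A rested on 1 bin of 50.4% GC with 6 peaks, and the other 4 bins had a mean of 0.5. Bins of 40 to 50% GC occurred only inside CACNA1A, so gene and GC content cannot be told apart there.

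**Figure D3:**
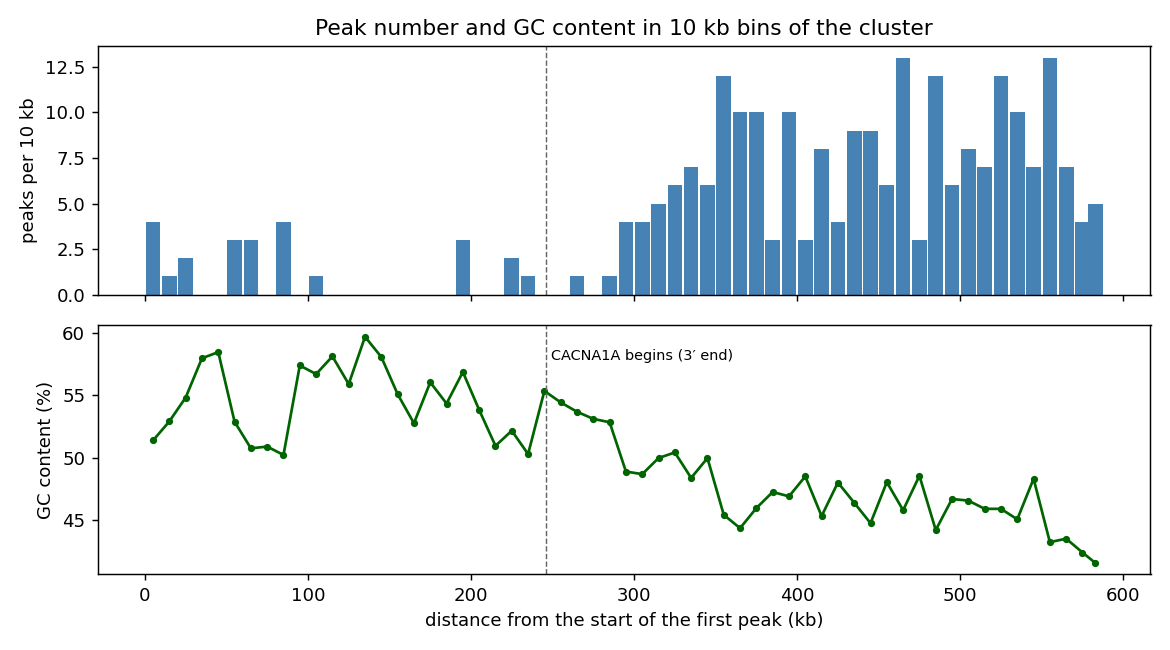
Peaks per 10 kb (bars, upper panel) and GC content in % (points, lower panel) against the distance in kb from the start of the first peak, with the 3′ end of CACNA1A as a dashed line and a last bin of only 5727 bp. Complete bins with 5 or more peaks all lie in CACNA1A and have a median GC content of 45.9%, against 55.4% in bins without a peak.

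The peaks themselves were richer in A and T than the sequence around them. Their pooled GC content was 38.7%, against 51.6% in the rest of the region, and the median peak had 38.9%, with a range of 24.4 to 46.5%. All 249 peaks were thus below the 50.5% of the region, where 42.3% of the 2539 tiles of 200 bp between peaks were. Within CACNA1A the pooled values were 38.8% in peaks and 49.0% between them. The 113 RWPE-empty vector peaks elsewhere on chromosomes 1 to 22 and X had 37.8%, close to the value in the region, so the low GC content is shared by the list and not particular to this cluster. No test was made of these differences, since peaks of 1 library are not replicates. Tags at the summit varied little with the GC content of the peak (Spearman rho -0.14 across the 249 peaks).

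**Figure D4:**
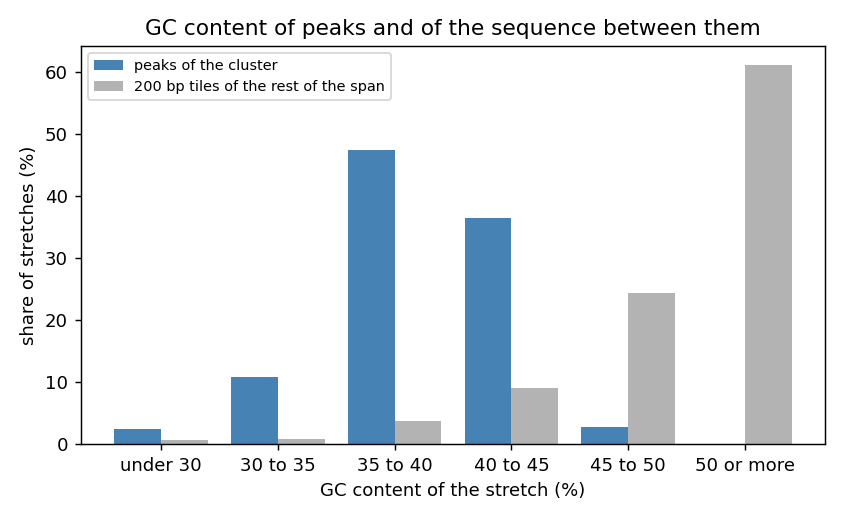
Share of stretches in % (y axis) by GC content in classes of % (x axis), for the 249 peaks of the region and for 2539 tiles of 200 bp from the sequence between them. Most peaks have 35 to 45% GC, where few tiles lie, and no peak has 50% or more, where 61.2% of the tiles lie.

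Much of the AT-rich sequence of the region was under a peak. When the part of the region in CACNA1A was cut into 200 bp tiles, the middle of the tile fell in a peak for 94 of 174 tiles (54.0%) of 35 to 40% GC. It did so for 23 of 72 tiles (31.9%) below 35% GC, 102 of 315 tiles (32.4%) of 40 to 45%, 24 of 486 tiles (4.94%) of 45 to 50% and 1 of 650 tiles (0.154%) above that. In the part before CACNA1A the shares were 6 of 20 tiles of 35 to 40% GC, 6 of 88 (6.82%) of 40 to 45% and 0 of 204 of 45 to 50%. The difference between the gene and the part before it was not tested.

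Runs of A or T were less frequent in whole peaks than between them. The study reports AAAAA as the most enriched motif of its PABPC1 sites in these cells, found by motif discovery. Here AAAAA was counted on both strands in the peaks of the region and compared with the sequence between them. The peak set and the measure thus differ from those of the study, and its result was not retested. AAAAA occurred 603 times in the peaks, or 11.9 times per kb. It occurred 15.5 times per kb in the rest of the region, a ratio of rates of 0.771. In CACNA1A alone the ratio was 0.698. The 113 RWPE-empty vector peaks elsewhere on chromosomes 1 to 22 and X had 11.04 per kb, close to the rate in the region's peaks. In windows of 200 bp centred on the summits of all 249 peaks, however, the rate was 14.9 per kb and the ratio 0.965, so the difference nearly disappears with this choice of window. Windows on peaks shorter than 200 bp also take in bases that are counted with the rest of the region. Among peaks of 35 to 40% GC the rate was 12.0 per kb, where tiles of the same GC content between peaks had 38.9. Among peaks of 30 to 35% it was 20.1 against 41.0, among those of 40 to 45% it was 8.78 against 27.5, and among the 7 peaks of 45 to 50% it was 4.14 against 23.4. In the 6 peaks below 30% GC the order was the other way, with 40.05 per kb against 23.7 in 17 tiles. Among the peaks themselves the rate of AAAAA thus rose from class to class as GC content fell. AAAAA was found at least once at 166 peaks (66.7%) and at 52.2% of the 113 peaks elsewhere. It was found in 85.5% of the stretches between peaks, which are mostly longer. Of the 512 sequences of 5 bp, each counted with its reverse complement, AAAAA was at rank 296 by the ratio of its rate in peaks to that between them. The highest ranks were held by AGTAT (3.23 times), GTATA (3.16), ATTCA (3.16), ATGAA (3.15) and AATAG (3.14). All 20 highest-ranked sequences had at most 2 G or C among their 5 bases. The ranking was not matched for GC content, which was 38.7% in peaks and 51.6% between them, so nothing more is read from this count.

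GGAA, the core that ETS factors recognize in DNA, occurred 725 times in the peaks of these cells, which carry no ERG vector. Its rate was 14.3 per kb in peaks and 8.91 per kb between them, a ratio of 1.60. It was held by 206 peaks (82.7%), by 64.6% of the peaks elsewhere on chromosomes 1 to 22 and X, and by 93.1% of the stretches between peaks, which are mostly longer. The ratio varied with the base before the core, at 2.03 for AGGAA, 1.69 for TGGAA, 1.20 for GGGAA and 0.606 for CGGAA. Within CACNA1A the ratio was 1.55. By GC content, the rate was 12.4 per kb in the 118 peaks of 35 to 40% and 8.22 per kb in tiles of that class between peaks. It was 17.9 against 8.06 at 40 to 45% and 17.8 against 9.02 at 45 to 50%. At 30 to 35% it was 12.0 against 7.38, and in the 6 peaks below 30% it was 5.85 against 5.08. A single peak of 42.0% GC in CACNA1A, at 13601445 to 13601827, held 39 of the matches. Without it the rate in the peaks of 40 to 45% was 16.0 per kb, and the ratio over the whole region 1.53. RWPE-empty vector peaks elsewhere on chromosomes 1 to 22 and X had 12.7 per kb. ACGGAT, the longer ETS sequence named by the study, occurred 3 times in the peaks, at 0.0596 per kb, and 0.0600 times per kb between them. Matches of this kind describe the sequence and are not sites shown to be bound.

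Tandem ATTC repeats were looked for only after the strongest peaks had been seen. ATTCATTC, on either strand, occurred 26 times in 14 of the 249 peaks (5.62%), at 0.522 per kb, and 29 times in all of the sequence between peaks, at 0.0545 per kb. Of the 26 matches, 8 were in the intron 3 peak and 5 in the intron 10 peak, which had prompted the search. Without both, 13 matches in 12 peaks remained, at 0.263 per kb. None of the 113 peaks elsewhere on chromosomes 1 to 22 and X held it. The repeats in the peaks of introns 3 and 10 and in the last peak of the region are those in capitals above.

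In the reference transcript of CACNA1A (MANE Select, with 47 exons, 13317256 to 13617293) the peaks were intronic. All 194 peaks within it had their midpoint in an intron, in 24 of the 46 introns. Exons make up only 2.88% of the bases of this transcript (8647 of 300038 bp). Almost all of it is thus intron, and nothing is read from this count. Intron 3, of 81.1 kb, held 66 peaks with a median of 18 tags (8.14 per 10 kb). Intron 1, of 50.7 kb, held 44 with a median of 18 tags (8.68 per 10 kb), intron 6 held 18 with a median of 21 (7.60 per 10 kb), and intron 10 held 13 with a median of 18 (10.1 per 10 kb). Toward the 3′ end the introns were sparse, with 1 peak in the 9.45 kb of intron 31 (54.5% GC) and 1 in the 7.73 kb of intron 30 (50.1% GC). The only exon of the transcript that a peak touched was exon 12, by 45 bp of the peak at 13423551 to 13423698. With the exons of every annotated transcript of all protein-coding genes, retained introns and upstream exons included, 21 peaks (8.43%, 95% Wilson interval 5.58 to 12.5%) touched an exon. By length, such exons made up 8.26% of the bases in peaks (4262 of 51575 bp) and 11.4% of the region.

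No peak had its midpoint within 1 kb of a canonical start of the 8 protein-coding genes in the region. All of these starts except that of CACNA1A lie before this gene, where the region held only 0.975 peaks per 10 kb. Nothing is read from this count. By midpoints, the nearest to the start of CACNA1A (13617293) was 1.57 kb away inside intron 1, at 13615684 to 13615771, with 13 tags. By edges it was a peak upstream of the gene's start, at 13618801 to 13619092, 1508 bp away and with 20 tags. The nearest to the start of DAND5 was 1.04 kb away by its midpoint and 980 bp by its edge, the only peak with an edge within 1 kb of a start. The midpoint nearest to the start of NFIX was 6.93 kb away, those nearest to STX10 and IER2 7.12 and 7.09 kb, and those nearest to LYL1, TRMT1 and NACC1 39.2 kb or more. The peaks did not end at the start of CACNA1A. Another 31 lay in the 39.6 kb upstream of it, in a stretch that GENCODE assigns to the gene through longer transcripts.

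At the right edge the peaks ended within the gene. The last 3 peaks, at 13653477, 13654565 and 13656686 (start positions), had 15, 16 and 17 tags and -log10 p values of 4.08, 4.08 and 3.62. They were not among the strong ones, and the last of them ended at 13656847. The last 50 kb of the region held 39 peaks at a GC content of 44.1%, and the next 50 kb held none at 46.3%. CACNA1A continues for 87.0 kb beyond the last peak, with a GC content of 46.9% and no peak. The 8 complete 10 kb bins just after the edge had 44.4 to 49.0% GC. The 21 bins of CACNA1A inside the region within this range of GC content held 3 to 13 peaks each, with a median of 7. Of the 434 tiles of 200 bp in the rest of the gene, 61 had under 40% GC and none was under a peak, where 117 of 246 such tiles (47.6%) were in the part of the gene inside the region. The GC content thus differed little across the edge, and the gene continued beyond it. The limit of the region is the last peak of chromosome 19, so the absence of peaks beyond it was fixed by this choice.

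Counted over 50 kb, the change in peak number was less steep at the left edge. In 10 kb bins the first bin held 4 peaks and the last complete bin also held 4. That last bin stops short of the right edge, and the 5727 bp between it and the edge held 5. The first 3 peaks started at 13071121, 13073065 and 13074619, with 25, 15 and 22 tags and -log10 p values of 7.998, 6.02 and 8.49, and lay between GADD45GIP1, whose annotation ends 3.08 kb before the first peak, and DAND5. The first 50 kb of the region held 7 peaks at 55.1% GC, and the 50 kb before it held none at 52.6% GC. No further RWPE-empty vector peak lies on chromosome 19, since the limits of the region are the first and last of them there. This holds by construction for the 100 kb on either side and for the 94 other tiles of the region's length. These tiles cover the sequenced part of the chromosome.

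Of the 175 other peaks of the RWPE-empty vector list, 113 were on chromosomes 1 to 22 and X, with 39 of them on chromosome 9 and 13 on chromosome 1. The other 62 were on chromosome Y (3 peaks) or on short sequences that the assembly does not place within a chromosome. The most peaks it had in a stretch as long as the region were 17, on the short sequence chr9_gl000199_random, and 6 on chromosomes 1 to 22 and X, on chromosome 1. Neighboring peaks on those chromosomes, the short sequences left out, were a median of 667 kb apart. The 175 peaks elsewhere had a median of 22 tags at the summit, with a range of 10 to 163, against 18 in the region. On chromosomes 1 to 22 and X alone the 113 others had a median of 17 tags and a range of 10 to 93. The fold enrichment had a median of 4.78 in the region, 3.67 in the 175 others and 3.85 in the 113. It was at least 5 at 120 peaks of the region (48.2%) at 19 of the 175 others (10.9%), at 17 of the 113 (15.0%), and at 32.8% of the whole list. Nothing is read from these values, since the peak calls chose the region. The local input was within 0.005 of the genome-wide background, its lowest level in the list, at 119 of the region's 249 peaks (47.8%). It was so low at 8 of the 175 others (4.57%) and at 7 of the 113 (6.19%). It was above 5 input tags at none of the region's peaks and at 46 of the 175 others (26.3%), but at only 5 of the 113 (4.42%), so most peaks of high input lay on chromosome Y or the short sequences. The median local input was 0.509 in the region and 0.936 at the 113. The highest local input in the region was 2.999.

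In RWPE-ERG cells no peak was listed in the region. The nearest before it, at 12907026 to 12907324 in HOOK2, was 164 kb away and had 4 tags. The nearest after it, at 13715287 to 13715824, was 58.4 kb away, with 7 tags and a -log10 p of 9.36, and lay in the part of CACNA1A where RWPE-empty vector cells had no peak. A stretch without a RWPE-ERG peak is common on this chromosome. Of its 95 tiles as long as the region, 62 (65.3%) held none, and the 44 peaks on the chromosome come to 0.436 for each such length.

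The RWPE-ERG ChIP library was also 16.3 times shallower. Scaled by depth alone, the summits of the region would hold 0.612 to 2.20 tags in it, all below the 3 tags of the weakest RWPE-ERG peak. The RWPE-ERG fragments were taken as 299 bp in place of 85 bp, and each tag therefore counts over 3.52 times the length. Scaled by both, the median summit would hold 3.88 tags, and 233 of 249 peaks (93.6%) would reach 3 tags and 50 (20.1%) would reach 5. This second scaling takes the density at the summit to hold over 299 bp, although 213 of the peaks (85.5%) were shorter than that, and it may overstate the tags. Whether peaks of this strength could have been listed at the RWPE-ERG depth thus depends on the scaling. With 1 library per group, an effect of ERG on the region and the difference in depth and fragment length cannot be told apart.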

How the data were processed

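The PABPC1 ChIP-seq peak lists of both groups were used, with 1 pooled library per group. The authors mapped reads on hg19 (Bowtie2), took out duplicates (samtools) and blacklisted sequence (bedtools), and ran MACS2 2.1.2 with the input as control and a p limit of 0.001. Per the file headers, the deposited signal is the fragment pileup at the summit, with the larger library scaled to the smaller. The deposited -log10 p and -log10 q values are those of MACS2, and its p uses the whole part of the pileup, so ties occur. The deposited fold enrichment is the ratio of pileup to local input after 1 is added to both. Positions in bp were used as deposited.

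Tags at a summit were the pileup divided by 0.408, the ratio of input to ChIP tags, and lay within 0.0109 of a whole number. Local input was solved from the fold enrichment. Genes were from GENCODE release 44 mapped to hg19, and a peak was assigned by its midpoint. Peaks named are the 5 with the highest -log10 p, the 3 at each edge and those beside the longest gap, and extremes of tags or length were added after values were seen. No test was run. Intervals are 95% Wilson intervals for shares and order-statistic intervals for medians, and cover counting error only. Members, lists and alternatives were chosen with earlier results of these data known. Alternatives were stricter peak filters, merging within 1 kb, other position rules, 200 bp summit windows and other scalings. All 7 checks on simulated peaks gave the planted answer. Calculations were run in Python 3.11.15 with scipy 1.17.1, pandas 2.3.3 and numpy 2.4.6, and plots with matplotlib 3.10.9. Read-level coverage was not analysed here, so a rise of coverage over the whole region could not be looked for.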

Additional observations from a re-analysis of the deposited data

How the results depend on the processing

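The share of peaks in CACNA1A and of peaks touching an exon stayed within their counting intervals under every alternative run for them. Keeping peaks by -log10 p (5 or more), by q (0.05 or less) or by fold enrichment (5 or more) left 172, 87 or 120 peaks in the region and 70.2, 71.3 or 86.3% of the list, against 58.7% unfiltered. On chromosomes 1 to 22 and X alone, unfiltered, it was 68.8%. Merging within 1 kb left 99 stretches and 39.3%. In the order of these 3 filters, the median spacing became 1445, 2086.5 and 1770 bp, by construction since fewer peaks remain, and the median summit 20, 23 and 21 tags. From end to start the median spacing was 699 bp. A -log10 p of at least 5 lengthened the longest stretch without a peak to 146738 bp, and bins of 20 kb held a peak in 83.3%. In 200 bp centred on the summit, AAAAA took up 1.49% of positions, against 1.19% in whole peaks and 1.55% in the rest of the region, and the GC content was 39.4%. Widening the region by 100 kb on each side took in 1 RWPE-ERG peak. The share of peaks that would reach the RWPE-ERG minimum fell to 0% without the correction for fragment length and to 20.1% at 5 tags, and was 100% at a -log10 p of at least 5. No paired analysis was possible because each group has 1 library.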

Other observations

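The strand of the A runs was compared with that of the gene. In peaks of CACNA1A, AAAAA occurred 5.23 times per kb on the coding strand and 6.31 times per kb on the template strand. Between the peaks of the gene it occurred 8.76 and 7.78 times per kb, respectively. GGAA occurred 6.58 times per kb on the coding strand and 7.61 on the template strand in peaks, and 4.69 and 4.45 times between them. For both sequences the template strand held the higher rate in peaks and the coding strand the higher rate between them. These are counts in 1 library with no test.

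Tiles of 200 bp in CACNA1A inside the region were split by AAAAA. Over all of them, the middle lay in a peak for 12.4% of tiles without AAAAA and for 15.5% of tiles with it. Within classes of GC content the order was the other way up to 50% GC. Under 40% GC, it lay in a peak for 27 of 47 tiles without AAAAA (57.4%) and for 45.2% of the tiles with it. At 40 to 45% GC the shares were 38 of 92 tiles (41.3%) and 64 of 223 tiles (28.7%), and at 45 to 50% they were 8.13 and 3.37%. At 50% GC or more 1 tile lay in a peak, and it held AAAAA. Whether runs of A mark sequence to which short tags cannot be aligned uniquely was not tested.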
